A study of Mus musculus with 20 samples.

Results

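The nuclear genes for respiratory chain complexes II, III, IV, and V were examined in left ventricular tissue of aged mice on 4 diets. Members were the genes of the count data whose mouse symbol was Sdha, Sdhb, Sdhc, Sdhd, Cyc1, or Cycs, or began with Uqcr, with Cox followed by a digit from 4 to 8 and a letter, or with Atp5. The rule selected 54 of the 15956 listed genes. Of these, 48 were coding members, with 4 genes of complex II, 9 of complex III, 1 for cytochrome c, 17 of complex IV, and 17 of complex V, and the other 6 were pseudogenes. Subunits that carry other symbols, such as Ndufa4, were not members. A filter on low counts kept 51 members, and Cox7b2, Atp5k-ps2, and Uqcrh-ps2 did not pass it.

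Complex II (succinate dehydrogenase) is the citric acid cycle enzyme that feeds electrons from succinate into the respiratory chain. Complex III (ubiquinol-cytochrome c reductase) passes them to the soluble carrier cytochrome c, complex IV (cytochrome c oxidase) passes them on to oxygen, and complex V (ATP synthase) uses the resulting proton gradient to make ATP. The heart depends on this chain for contraction, and several complex IV subunits have a muscle isoform as well as a ubiquitous one.

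All 20 animals were male mice, 5 per group, and the sources used here name no strain. The normal protein (NP) diet held 20% casein and the low protein (LP) diet 5%, while the high-fat (HF) diet combined 60% fat with 20% casein and the HF + LP diet 60% fat with 5%. Diets began at 12 months of age and lasted 4 months, with collection at 16 months, although the sample labels carry an age of 18 months. Whole left ventricle holds several cell types, so fewer cells of a type and less RNA per cell cannot be told apart.

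Total counts per mouse lay between 12559607 and 23331907. Genes of mitochondrial DNA took from 35.4% to 47.2% of the counts of a mouse, with 38.1% to 39.8% in HF, 41.3% to 47.1% in NP, 35.4% to 44.5% in LP, and 38.5% to 47.2% in HF + LP. The 9 ventricular cardiomyocyte markers were all present and summed to between 44348 and 59977 CPM (counts scaled to library size). The sum was lowest in HF + LP mouse 3, LP mouse 20, and LP mouse 13, at 44348, 44540, and 44754 CPM, and at least 48189 CPM in the other mice. The 5 erythroid markers, all present, were highest in the same mice, at 18734, 14294, and 14241 CPM, and lay between 3245 and 13504 CPM in the others. LP mouse 13 stood apart from its group, with a median correlation of 0.908 with the other LP mice, against 0.944 to 0.979 for every other mouse in its own group. Its 4 atrial markers summed to 16747 CPM, above the other LP mice (up to 5008 CPM). HF mouse 1 had 12343 CPM of the same atrial markers. Ucp1, the brown fat uncoupling protein, reached 411 CPM in LP mouse 13, 62.2 CPM in LP mouse 20, and 36.6 CPM in HF mouse 3, and was at most 11.2 CPM in the other mice. The 6 adipocyte markers summed to 352 CPM in LP mouse 13 and 156 CPM in LP mouse 20. Their sum was 74.7 CPM in HF mouse 3 and at most 46.6 CPM in the other mice. The part of these cell types in the results below was not tested, so values with and without LP mouse 13 and LP mouse 20 are given where they bear on a count.

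The members took 4.38% ± 0.403 of all counts (SD, n = 20), from 3.59% in NP mouse 5 to 5.10% in HF + LP mouse 4. Complexes IV and V took most of this, with 1.75% ± 0.171 and 1.67% ± 0.151, followed by complex III with 0.669% ± 0.0637, complex II with 0.264% ± 0.0288, and cytochrome c with 0.0258% ± 0.00295. Because the share of mitochondrially encoded genes differed between mice, the sum was also taken as a percentage of the counts outside mitochondrial DNA. On that scale the NP mice held 7.53% ± 0.496, the LP mice 7.09% ± 0.486, the HF mice 7.45% ± 0.660, and the HF + LP mice 7.81% ± 0.576 (SD, n = 5), and the ranges of all 4 groups overlapped. LP mouse 20 was lowest at 6.34% and HF + LP mouse 4 highest at 8.29%.

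Levels of single genes are given as normalized counts, which are counts scaled to a common library size by the trimmed mean of M values (TMM). The 3′ libraries yield reads from the end of each transcript, so counts are not proportional to transcript length and levels of different genes can be set side by side without a length correction. Cox6a2, the muscle isoform of subunit 6a of complex IV, had the highest mean at 69403 normalized counts. Atp5g3, a gene for the ring subunit c of ATP synthase, followed with 59994, Cox6c with 38034, and Atp5b, the catalytic beta subunit of ATP synthase, with 31766. In complex II, Sdhb, the iron-sulfur subunit, was highest at 24894 and Sdhd, a membrane anchor, lowest at 1192. Complex III spanned a narrower range, from 22154 for Uqcrq to 5366 for Cyc1, which encodes cytochrome c1, and the gene for cytochrome c, Cycs, had 4283. At the other end lay the isoforms of other tissues, with 7.48 for Cox7b2, 24.5 for Cox6b2, and 63.5 for Cox4i2, and in complex V Atp5g2, a second subunit c gene, with 43.3.

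**Figure D1:**
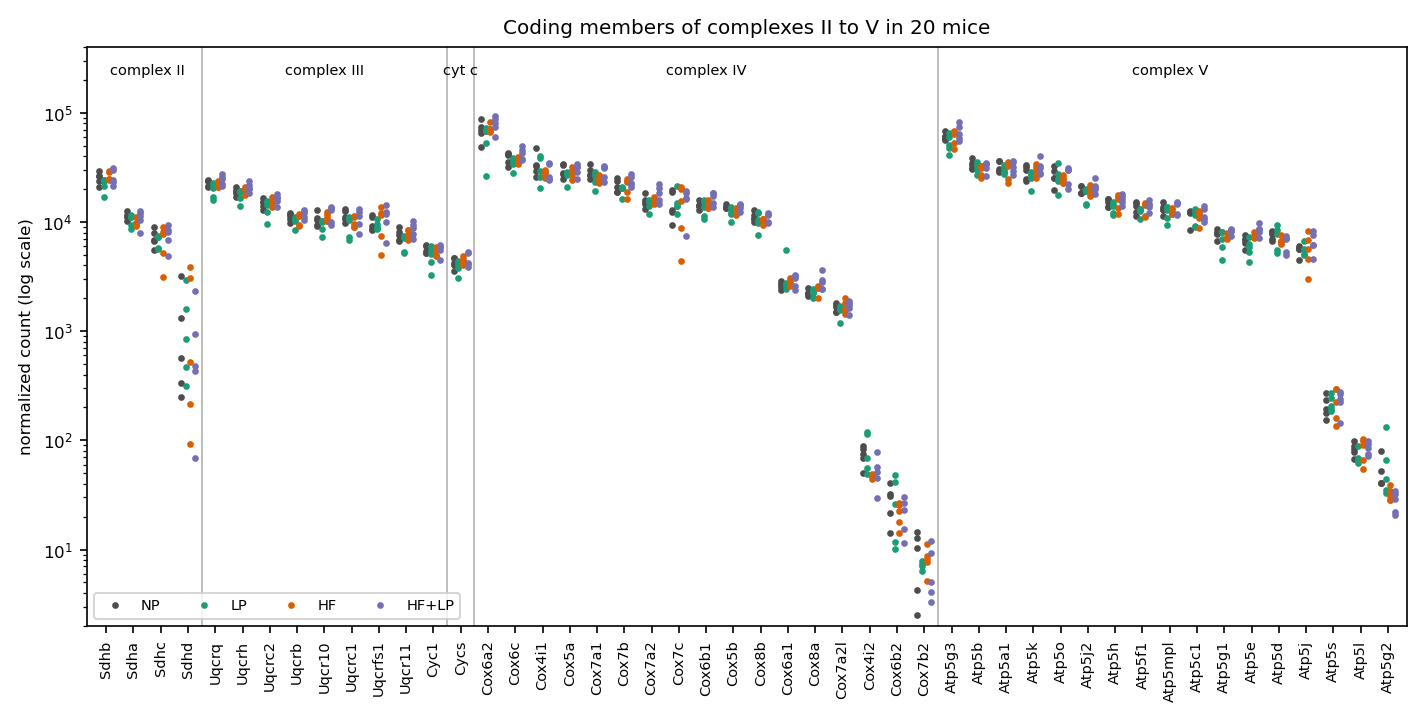
Normalized counts (y axis, log scale) of the 48 coding members in each of 20 mice, ordered by complex and by mean level, with 1 point per mouse coloured by diet group. The points of most members lie close together, whereas Sdhd spreads from 69.6 to 3836.

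The counts of some members are uncertain, since reads from the last bases of a transcript can match another gene. In the last 300 bases of their transcripts, 9 of the 48 coding members matched another annotated gene over at least 75 bases at 97% identity or more. Atp5l, a subunit of the membrane part of ATP synthase, matched 9 other genes and had only 80.1 normalized counts, while Atp5g2 and Uqcrb matched 3 each, Cox7c 2, and Atp5h, Atp5j, Atp5o, Cox6c, and Uqcr11 1 each. How reads matching several genes were counted is not given in the sources used here. In addition, 18 of the coding members overlap another annotated gene, 14 of them on the opposite strand, among them Cox6a2 with Itgad and Cox4i1 with Emc8. On the same strand, Cox4i1 overlaps Gm20388, and Atp5o overlaps another entry named Atp5o that is not among the listed genes.

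The main question was whether the diets differed in these genes. No member was called in any comparison by edgeR's quasi-likelihood test, where calling required a mean normalized count over 50, reached by 45 of the 51 tested members, together with an adjusted p below 0.01. Over all 13991 genes tested, 0.264% were called in HF compared to NP, 0.1% in HF + LP compared to LP, 0% in HF + LP compared to HF, 0% in LP compared to NP, 0% in the interaction of fat and protein content, and 0.479% in the test of any difference over the 4 groups. With the adjusted p relaxed to 0.05 the members called were still 0 in each comparison, in the same order beside 1.37%, 0.379%, 0%, 0%, 0%, and 2.4% of all genes. At an unadjusted p under 0.05, members numbered 1 in HF compared to NP, 2 in HF + LP compared to HF, 1 in LP compared to NP, 20 in HF + LP compared to LP, 7 in the interaction, and 5 over the 4 groups. The shares of all genes at that threshold were 13.1%, 4.84%, 7.23%, 15.9%, 7.17%, and 15.9%, so that by edgeR HF + LP compared to LP and the interaction had a share of members above that of all genes. In the same order DESeq2 gave 1, 0, 2, 20, 7, and 9 such members, beside 13.1%, 4.76%, 6.997%, 16.1%, 7.14%, and 17.4% of all genes, and the 9 members over the 4 groups made up 17.6%. DESeq2 also called Atp5e, described below, in HF + LP compared to LP and over the 4 groups.

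**Figure D2:**
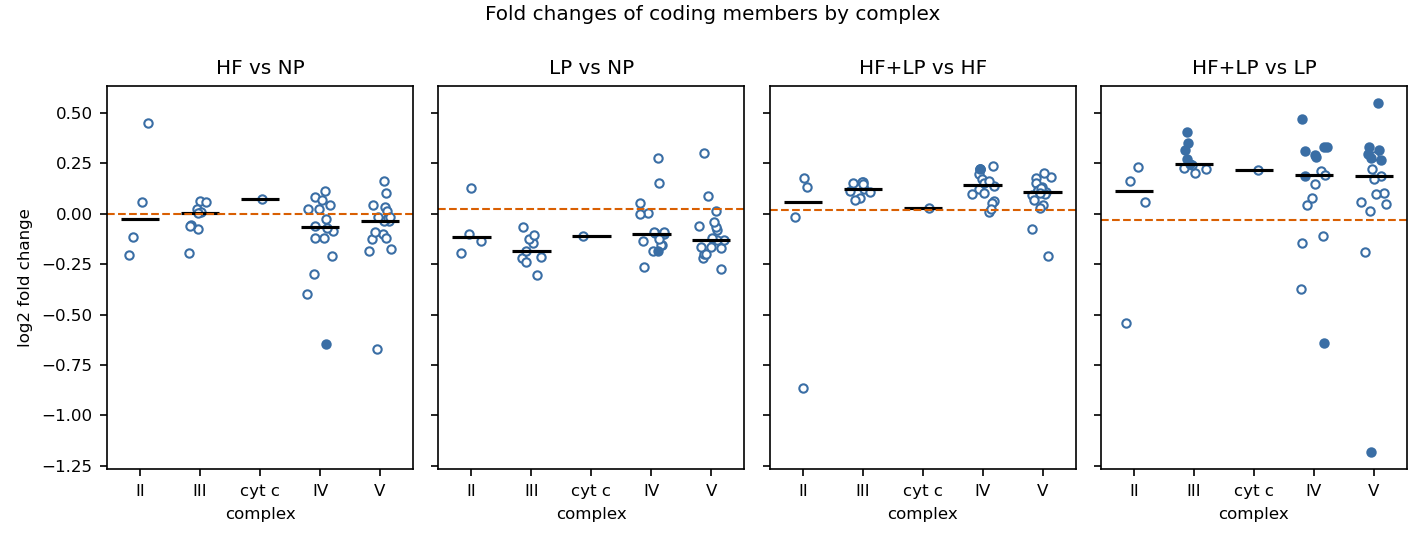
Log2 fold change (y axis) of each tested coding member by complex in the 4 comparisons of diets. Filled points have an unadjusted p under 0.05, black lines are medians of a complex, and the dashed line is the median of all genes. In HF + LP compared to LP the medians of all complexes lie above that line, at 0.11 for II, 0.25 for III, 0.19 for IV, and 0.19 for V.

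Against LP, the HF + LP group had 18 members higher and 2 lower with an unadjusted p below 0.05, and none passed the adjusted threshold. Higher genes made up 6.26% of all genes and lower genes 9.66%. The median log2 fold change of the members was 0.21, against −0.03 for all genes, and 44 of the 51 were above 0, compared with 45.8% of all genes. Complex III contributed 5 of the 18, complex IV 7, and complex V 6, while complex II and cytochrome c had none. The count depended on single mice. The total of 20 in both directions became 9 without LP mouse 20 and 12 without LP mouse 13, where 13.3% and 12.3% of all genes had such a p, and 13 without HF + LP mouse 2 (14.8%). It became 23 without LP mouse 2 and 27 without HF + LP mouse 3 (18.3% and 16.5% of all genes), and lay between 14 and 20 without any one of the other mice. HF + LP mouse 3, LP mouse 20, and LP mouse 13 are the mice with the lowest cardiomyocyte and highest erythroid marker sums, whose part in the count was not tested. Without LP mice 13 and 20 together, a choice made after seeing the data, 4 of 52 members were below an unadjusted p of 0.05, or 7.69%, beside 7.50% of all genes, and the median log2 fold change of the members was 0.13. These were Atp5e and Cox8a, higher in HF + LP, and Atp5g2 and Cox4i2, lower. In that fit 44 of the 52 members were above 0, and the median of all genes was −0.01. The fit of only the LP and HF + LP groups gave 9 of 50 members, beside 10.4% of all genes.

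Atp5e encodes the small epsilon subunit in the central stalk of ATP synthase and lies at chr2:174461072-174464105 on the minus strand of GRCm38. Its normalized counts were 5890, 7236, 4278, 6266, and 5321 in LP mice 2, 5, 13, 15, and 20. In HF + LP mice 1 to 5 they were 9810, 7172, 8637, 8176, and 8583. Only LP mouse 5 reached the lowest HF + LP mouse, so the groups overlapped by that pair. The label of this LP mouse adds the words sample 2 to the animal number, with no explanation, and without it the log2 fold change was 0.64 with an adjusted p of 0.0139 from edgeR. The log2 fold change was 0.55 ± 0.12 (SE), with an adjusted p of 0.0526 from edgeR's quasi-likelihood test and 0.00288 from DESeq2. Without LP mice 13 and 20 it was 0.38, with an adjusted p of 0.339 from edgeR. HF mice had 7462 ± 350 and NP mice 6659 ± 748 (SD, n = 5). HF + LP mice were also above HF mice in the mean, at 8476 ± 950, but that log2 fold change was 0.18 ± 0.12 with an adjusted p of 0.999.

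Uqcr11 encodes a small subunit of complex III and lies at chr10:80402997-80406830 on the minus strand. Its normalized counts were 7435, 7172, 5341, 7342, and 5172 in LP mice 2, 5, 13, 15, and 20, and 7681, 8850, 6966, 9371, and 10143 in HF + LP mice 1 to 5. LP mice 13 and 20 were the lowest of all 20 mice, while the other 3 LP mice lay within the range of NP. The log2 fold change was 0.41 ± 0.13 with an adjusted p of 0.142 by the quasi-likelihood test, and 0.22 without those mice. Other complex III subunits gave log2 fold changes of 0.31 ± 0.11 for Uqcrq, 0.35 ± 0.13 for Uqcr10, and 0.25 ± 0.10 for Uqcrh, with adjusted p of 0.162, 0.185, and 0.230. These fold changes were 0.15, 0.21, and 0.12 without LP mice 13 and 20. Uqcrc2, a core protein, had a log2 fold change of 0.27 ± 0.12 and an adjusted p of 0.276 by the same test, and 0.17 without LP mouse 13.

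Cox8a, the ubiquitous isoform of subunit 8 of complex IV, lies at chr19:7215153-7217616 on the minus strand. LP mice 2, 5, 13, 15, and 20 had 2287, 2018, 2281, 2445, and 2241 normalized counts, and HF + LP mice 1 to 5 had 2424, 2918, 2419, 3610, and 2816. Values of the LP mice were close together, and only LP mouse 15 exceeded the 2 lowest HF + LP mice. The log2 fold change was 0.33 ± 0.11, with an adjusted p of 0.142 by the quasi-likelihood test. It was 0.32 without LP mice 13 and 20 and 0.23 without HF + LP mouse 4. Cox7a2, Cox6b1, and Cox6c, further structural subunits of complex IV, had log2 fold changes of 0.33 ± 0.12, 0.31 ± 0.11, and 0.29 ± 0.11. Without LP mice 13 and 20 these fell to 0.22, 0.14, and 0.18. Cox7b was the single member whose groups did not overlap in the higher direction, with 16258 to 20912 normalized counts in LP and 20997 to 27523 in HF + LP, where 0.915% of all genes did so. The gap was narrow, and its log2 fold change was 0.28 ± 0.13 with an adjusted p of 0.281 by the quasi-likelihood test. The fold change of Cox7b was 0.20 without LP mice 13 and 20.

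Members of complex V below an unadjusted p of 0.05 also included Atp5g1 and Atp5g3 of the subunit c ring, with log2 fold changes of 0.30 ± 0.13 and 0.33 ± 0.14. Without LP mouse 13 that of Atp5g1 was 0.18. Atp5k, Atp5h, and Atp5j2, further subunits, had 0.32 ± 0.13, 0.28 ± 0.12, and 0.27 ± 0.11, and 0.19, 0.15, and 0.10 without LP mice 13 and 20. The third subunit c gene, Atp5g2, at chr15:102662864-102672352 on the minus strand, had the opposite sign at −1.18 ± 0.33, with an adjusted p of 0.107 by the quasi-likelihood test. It had 35.1, 44.1, 133, 66.5, and 33.0 normalized counts in LP mice 2, 5, 13, 15, and 20, and 32.6, 21.9, 28.8, 20.8, and 34.3 in HF + LP mice 1 to 5. LP mouse 13 was the highest of these, and the log2 fold change was −0.68 without it. The means of Atp5g3 and Atp5g1 were 59994 and 7494 normalized counts. Their last 300 bases matched no other gene, whereas those of Atp5g2 matched 3, so its level cannot be set against theirs. Cox4i2, the lung isoform of subunit 4 of complex IV, was the other member on the lower side, with a log2 fold change of −0.64 ± 0.25 and an adjusted p of 0.220.

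**Figure D3:**
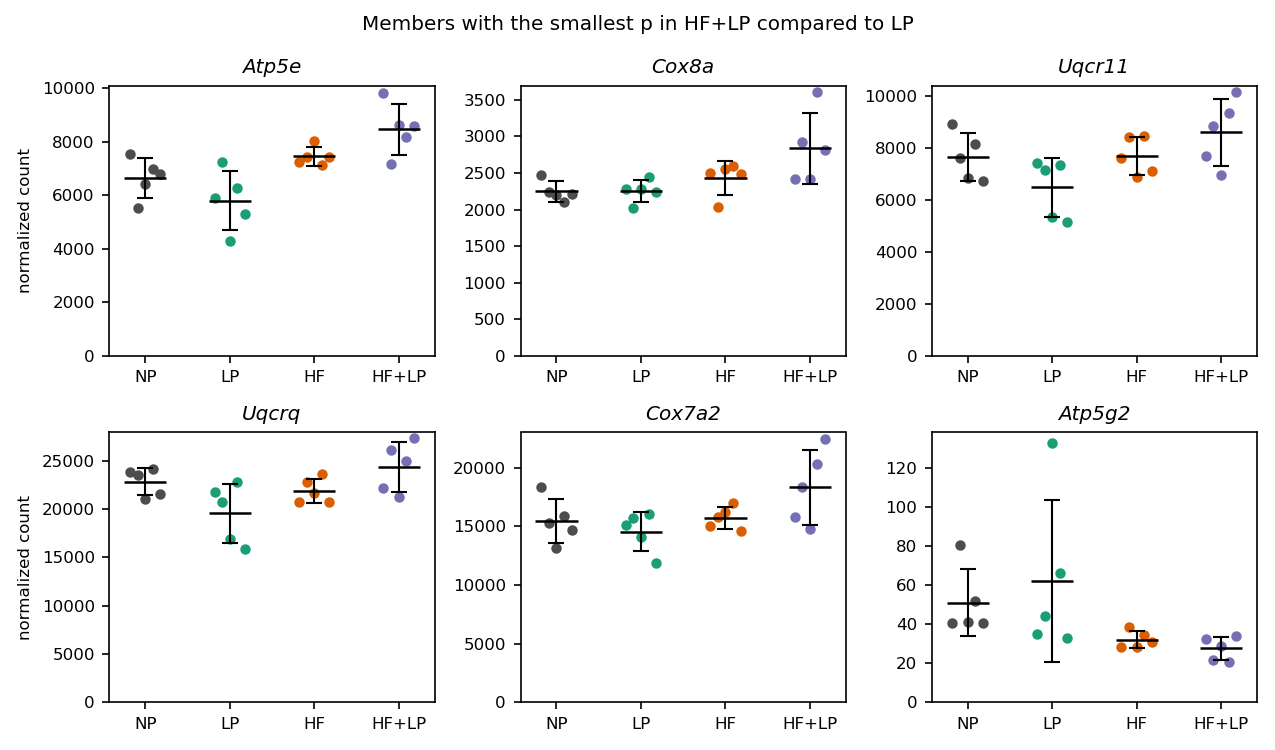
Normalized counts (y axis from 0) of the 6 members with the smallest p in HF + LP compared to LP, with 1 point per mouse and the mean ± SD of 5 mice in black. Atp5e ranges from 4278 to 7236 in LP and from 7172 to 9810 in HF + LP, and Atp5g2 reaches 133 in LP mouse 13.

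The members above 0 in this comparison, 44 of 51, came from all complexes and included 4 pseudogenes. Below 0 were 1 member of complex II, 4 of IV, and 2 of V. Promoters of members were set beside those of other genes, and fold changes of members with and without a motif were not compared. RefSeq sequences on GRCm38.p6, from 250 bases before to 50 after the gene start, matched 35 of the 54 members, all of them coding. Searched motifs, on both strands, were GCGCA, any base, and GCGC in a row for NRF1, CCGGAAG of ETS factors such as GABPA, AAGGTCA of ERR factors, AAGATGG of YY1, and GGGCGG of SP1. The NRF1 motif was present in 28.6% of the 35 member promoters and 5.16% of 26990 other promoters, and the ETS motif in 34.3% and 9.90%. For ERR the shares were 14.3% and 5.37%, for YY1 8.57% and 7.28%, and for SP1 37.1% and 38.2%. The other promoters were not limited to genes tested here. Shown are the members with the smallest p among the higher ones of complexes V, III, and IV in HF + LP compared to LP, and after them Cox8b, Cox7a2, and Cox7a1, so that the ubiquitous isoforms Cox8a and Cox7a2 can be set beside their muscle forms. Each is written 5′ to 3′ on the strand of the gene, in the order minus strand chr2:174464052-174464351, minus strand chr10:80406772-80407071, minus strand chr19:7217567-7217866, minus strand chr7:140900397-140900696, minus strand chr9:79759804-79760103, and plus strand chr7:30183921-30184220. Capitals mark every match of the 5 motifs or their reverse complements, and no marked matches overlap.
Atp5e: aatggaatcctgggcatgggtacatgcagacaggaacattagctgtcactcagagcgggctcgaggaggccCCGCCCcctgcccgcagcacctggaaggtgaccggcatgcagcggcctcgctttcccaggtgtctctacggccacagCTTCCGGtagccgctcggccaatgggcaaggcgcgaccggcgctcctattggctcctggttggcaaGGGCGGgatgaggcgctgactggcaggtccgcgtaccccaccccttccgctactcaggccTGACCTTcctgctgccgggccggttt
Uqcr11: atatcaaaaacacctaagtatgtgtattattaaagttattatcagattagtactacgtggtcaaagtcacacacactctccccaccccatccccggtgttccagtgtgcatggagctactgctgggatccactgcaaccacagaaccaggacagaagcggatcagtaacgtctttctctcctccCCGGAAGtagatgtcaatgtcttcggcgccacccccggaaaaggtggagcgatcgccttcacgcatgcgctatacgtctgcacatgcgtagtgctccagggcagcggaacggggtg
Cox8a: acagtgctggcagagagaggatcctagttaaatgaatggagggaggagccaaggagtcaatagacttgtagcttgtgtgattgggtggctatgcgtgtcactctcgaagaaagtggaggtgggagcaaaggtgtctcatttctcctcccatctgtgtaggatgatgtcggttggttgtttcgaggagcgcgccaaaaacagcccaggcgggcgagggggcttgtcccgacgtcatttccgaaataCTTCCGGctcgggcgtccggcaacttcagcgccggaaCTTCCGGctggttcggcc
Cox8b: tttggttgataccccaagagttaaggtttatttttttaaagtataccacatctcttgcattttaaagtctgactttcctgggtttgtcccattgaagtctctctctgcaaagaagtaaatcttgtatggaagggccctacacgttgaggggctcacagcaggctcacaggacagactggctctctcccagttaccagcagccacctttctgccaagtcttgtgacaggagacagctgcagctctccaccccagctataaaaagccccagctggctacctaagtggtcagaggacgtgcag
Cox7a2: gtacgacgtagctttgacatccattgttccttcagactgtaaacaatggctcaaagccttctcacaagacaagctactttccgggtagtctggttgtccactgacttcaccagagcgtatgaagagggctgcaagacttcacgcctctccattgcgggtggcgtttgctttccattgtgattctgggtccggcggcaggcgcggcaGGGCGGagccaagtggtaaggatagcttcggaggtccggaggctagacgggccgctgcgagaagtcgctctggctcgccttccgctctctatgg
Cox7a1: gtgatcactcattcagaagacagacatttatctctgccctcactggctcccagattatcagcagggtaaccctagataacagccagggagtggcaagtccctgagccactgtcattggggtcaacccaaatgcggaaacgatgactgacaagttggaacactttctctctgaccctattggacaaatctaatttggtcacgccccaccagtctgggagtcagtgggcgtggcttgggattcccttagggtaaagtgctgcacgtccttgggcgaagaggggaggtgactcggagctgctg
The Atp5e promoter holds an ETS, an ERR, and SP1 motifs, that of Uqcr11 an ETS motif, that of Cox8a a pair of ETS motifs, and that of Cox7a2 an SP1 motif. None of the 5 motifs lies in these windows of Cox8b or Cox7a1. A match describes letters in the window and not binding.

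In LP compared to NP, the single member below an unadjusted p of 0.05 was Cox5b, a zinc-binding subunit of complex IV at chr1:36691449-36693681. It had 13416, 14551, 13384, 13818, and 13616 normalized counts in NP mice 3, 4, 5, 6, and 8, and 12963, 12153, 11703, 13651, and 10052 in LP mice 2, 5, 13, 15, and 20. Only LP mouse 15 lay within the NP range. The log2 fold change was −0.18 ± 0.09 with an adjusted p of 0.687 by the quasi-likelihood test, and −0.12 without LP mouse 20. The members' median log2 fold change was −0.12, against 0.02 for all genes, and 41 of 51 members were below 0, including all 9 of complex III, while 54.6% of all genes were above 0. The core protein gene Uqcrc1 of complex III had a log2 fold change of −0.30 ± 0.16 and an adjusted p of 0.713 by the same test, and −0.09 without LP mice 13 and 20. Without these mice the members' median was −0.05, and 0 of 52 members were below an unadjusted p of 0.05, beside 2.68% of all genes. In that fit 11 of the 52 were above 0. Leaving out 1 mouse gave from 0 to 7 members below that p. The count was 7 of 52, or 13.5%, without LP mouse 2, beside 9.70% of all genes. Without LP mouse 15 it was 4 of 52, or 7.69%, beside 8.71%.

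HF compared to NP gave the least shift of the members, with a median log2 fold change of −0.02 against −0.00 for all genes, and 22 of 51 above 0, beside 49.8% of all genes. With DESeq2's size factors 25 were above 0. Cox4i2 had the smallest p, with a log2 fold change of −0.64 ± 0.26 and an adjusted p of 0.264 by the quasi-likelihood test. It had 50.6, 68.8, 74.4, 89.2, and 84.0 normalized counts in NP mice 3, 4, 5, 6, and 8, and 47.2, 49.0, 47.0, 43.9, and 48.0 in HF mice 1 to 5. All HF mice lay below all NP mice, narrowly for NP mouse 3. Atp5g2 also did not overlap between these groups, with 28.2 to 38.7 in HF and 40.9 to 80.5 in NP. These were 2 members of 51 in the lower direction, where 3.6% of all genes did not overlap. Among the abundant members Sdha, the flavoprotein of complex II, had the smallest p, with a log2 fold change of −0.20 ± 0.12 and an adjusted p of 0.499. The pseudogenes Cox6c2 and Atp5l-ps2 had −0.46 ± 0.25 and 0.44 ± 0.26, which became −0.25 without NP mouse 4 and 0.29 without NP mouse 3. In the fit without LP mice 13 and 20, which are in neither group, 2 of 52 members were below an unadjusted p of 0.05, Cox4i2 and Atp5g2, or 3.85% beside 16.5% of all genes.

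HF + LP compared to HF gave a median log2 fold change of 0.12 for the members and 0.02 for all genes, and 45 of 51 members were above 0, beside 53.7% of all genes. All 9 members of complex III and all 16 tested members of complex IV were above 0. The 7 macrophage markers summed to 307 to 377 CPM in HF and to 203 to 301 CPM in HF + LP. Marker sums of the other cell types, fibroblasts among them, overlapped between these groups, and their part was not tested. Below an unadjusted p of 0.05 were Cox8a, with a log2 fold change of 0.22 ± 0.11, and Cox6c2, a pseudogene resembling Cox6c, with 0.55 ± 0.25. Their adjusted p were 0.999 and 0.967 by the quasi-likelihood test, and the value for Cox8a was 0.12 without HF + LP mouse 4. DESeq2 had 0 members below an unadjusted p of 0.05. The fit without LP mice 13 and 20, which are in neither group but enter the shared estimate of the spread, had 6 of 52 members below that p, or 11.5% beside 6.71% of all genes, all of them higher. The added members were Cox6b1, Cox6c, and Cox7a1 of complex IV and Atp5g1 of complex V, and the members' median was 0.11. The comparisons above share groups, so their fold changes are not independent of each other.

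The interaction asks whether low protein changed a gene differently under high fat and under normal fat. Its estimate was above 0 for 44 of 51 members, beside 49% of all genes, with a median of 0.26 on the log2 scale against −0.01 for all genes, and 7 members had an unadjusted p under 0.05, all of them positive, beside 2.86% of all genes in that direction. They were Uqcrq and Uqcr11 of complex III, Cox5b, Cox7a1, and Cox6c of complex IV, and Atp5e and Atp5g1 of complex V. Cox7a1, the muscle isoform of subunit 7a, had the largest estimate of these at 0.42 ± 0.17. The adjusted p of the 7 lay between 0.683 and 0.689 by edgeR's quasi-likelihood test. Leaving out 1 mouse gave from 3 to 9 members. It gave 3 of 52, or 5.77%, without NP mouse 3, NP mouse 6, LP mouse 20, or HF mouse 1, near the 5.41%, 5.96%, 5.20%, and 6.72% of all genes in those fits, and 4, or 7.69%, without LP mouse 13 or HF + LP mouse 5, beside 6.22% and 5.59%. Without LP mice 13 and 20 the count was 1 of 52, or 1.92%, beside 3.37% of all genes. In that fit 46 of the 52 estimates were above 0, with a median of 0.16 against 0.004 for all genes.

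The spread between mice of a group was widest for a gene of complex II. Sdhd, at chr9:50596357-50603812 on the minus strand, was the most variable member, with an SD within groups of 1.80 on the log2 scale, the 25th highest of the 10099 genes with a mean normalized count over 50. Its normalized counts were 250, 1315, 570, 338, and 3199 in NP mice 3, 4, 5, 6, and 8, and 845, 316, 2964, 468, and 1581 in LP mice 2, 5, 13, 15, and 20. HF mice 1 to 5 had 215, 92.8, 3075, 519, and 3836, and HF + LP mice 1 to 5 had 2332, 476, 949, 430, and 69.6. Each group held both low and high mice, and the highest mouse exceeded the lowest 55.1-fold. The other membrane anchor, Sdhc, had an SD of 0.40, while the catalytic subunits were steadier, with 0.18 for Sdha and 0.20 for Sdhb. In HF + LP compared to HF the log2 fold change of Sdhd was −0.87, and its adjusted p was 0.999 by the quasi-likelihood test.

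Some members of other complexes were low in the same libraries as Sdhd. Cox7c, a small subunit of complex IV, had an SD of 0.62 within groups and was lowest in HF mouse 2, at 4372 normalized counts, and HF + LP mouse 5, at 7370, against up to 21399 in LP mouse 13. Uqcrfs1 had 4993 and 6458 in these mice and up to 14428 in the others. The 2 lowest mice were HF mouse 2 and HF + LP mouse 5 for 5 of the 47 tested coding members (10.6%), namely Sdhc, Sdhd, Uqcrfs1, Cox7c, and Atp5s, chosen after their values were seen. The same held for 7.85% of the 10099 genes, so this is not a result about the members. HF mouse 2 had the lowest total count of the 20 libraries, HF + LP mouse 5 did not, with 18762093, and the part of depth was not tested. The median SD was 0.196 over 45 members and 0.254 over all 10099 genes, a difference that was not tested. Cox5b was the steadiest with 0.11, and 1.24% of genes were less variable.

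**Figure D4:**
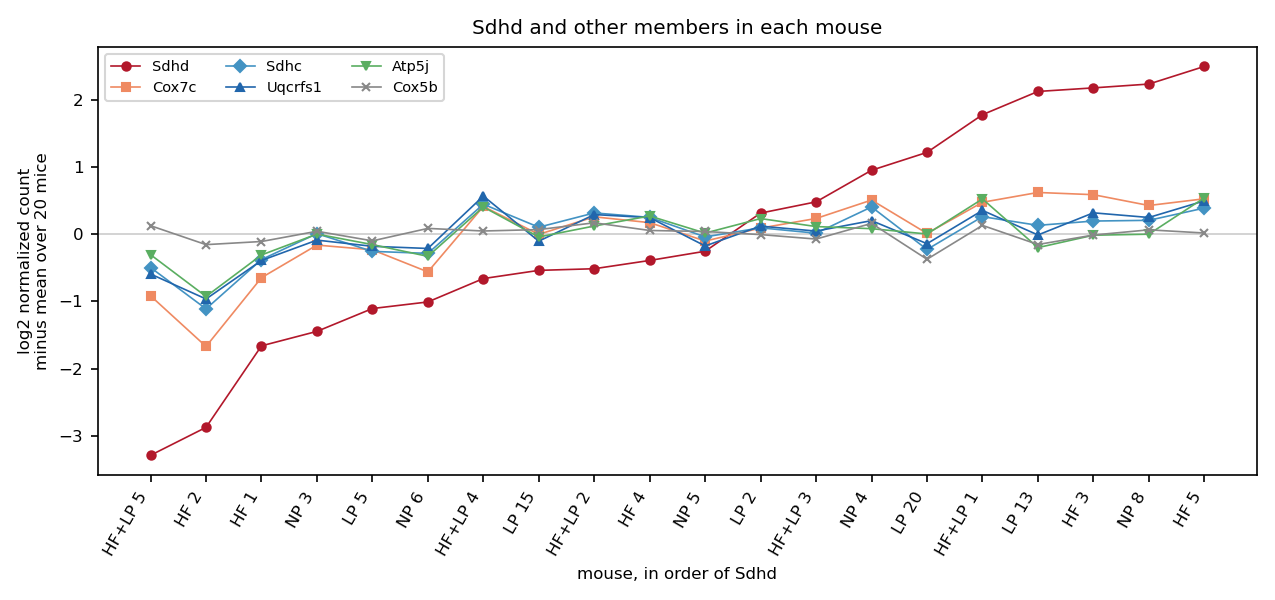
Log2 normalized count of 6 members minus the gene's mean over 20 mice (y axis), with mice in the order of Sdhd (x axis). Sdhd spans a 55.1-fold range, Cox7c, Sdhc, Uqcrfs1, and Atp5j are low in HF mouse 2, and Cox5b is nearly flat.

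Each tested coding member has a lowest and a highest mouse among the 20. LP mouse 20 was lowest for 20 of 47 members (42.6%), beside 9.18% of the 10099 genes, a difference that was not tested. This mouse had 44540 CPM of cardiomyocyte markers, where the other LP mice had 44754 (LP mouse 13) to 59977, and 14294 CPM of erythroid markers, beside 14241 in LP mouse 13, and their part was not tested. LP mouse 13 was lowest for 9 (19.1%, beside 21.3% of genes) and HF mouse 2 for 8 (17.02%, beside 10.97%). At the other end, HF + LP mouse 5 was highest for 14 members (29.8%, beside 6.70% of genes), HF + LP mouse 4 for 9 (19.1%, beside 8.59%), and NP mouse 4 and LP mouse 13 for 6 each (12.8%, beside 4.48% and 17.6%). LP mouse 13 thus held extremes at both ends for members and for all genes.

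Isoform pairs of complex IV were compared as log2 ratios of normalized counts within each mouse, which do not depend on library scaling. The muscle form Cox6a2 outnumbered Cox6a1 in every mouse, and Cox6a1 made up 3.80% ± 0.797 of the pair for NP, 6.63% ± 6.09 for LP, 3.74% ± 0.340 for HF, and 3.55% ± 0.314 for HF + LP mice (SD, n = 5). LP mouse 13 had 17.5% Cox6a1, the highest share of all mice. That mouse had 5521 normalized counts of Cox6a1 and 26083 of Cox6a2, where the other LP mice had at most 2753 and at least 53328. Cox6a1 was thus above and Cox6a2 below all other LP mice. HF mouse 1, with the second highest sum of atrial markers, had 2690 and 67004, where the other HF mice had at least 2600 and at least 68777, so that its Cox6a2 was the lowest of that group by a small margin.

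Cox7a2 and the muscle form Cox7a1 were nearer to each other, with Cox7a2 at 35.3% ± 2.66 of the pair for NP, 36.9% ± 2.41 for LP, 39.0% ± 1.53 for HF, and 38.7% ± 1.53 for HF + LP mice. Cox8a made up 16.8% ± 1.79, 18.1% ± 2.82, 19.2% ± 1.94, and 20.5% ± 3.74 of its pair with the muscle form Cox8b. Cox4i2 was at most 0.312% of its pair with Cox4i1. Cox7a2l, whose product is related to subunit 7a, had 1183 to 2020 normalized counts and entered no pair. Of 16 comparisons of ratios, tested by exact two-sided permutation, for which 0.00794 is the lowest attainable p, none had an adjusted p under 0.190. The smallest unadjusted p was 0.0238, by the same exact test, for Cox7a2/Cox7a1 in HF compared to NP, with a difference of 0.23 on the log2 scale, and for Cox4i2/Cox4i1 in HF + LP compared to LP, with −0.53.

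**Figure D5:**
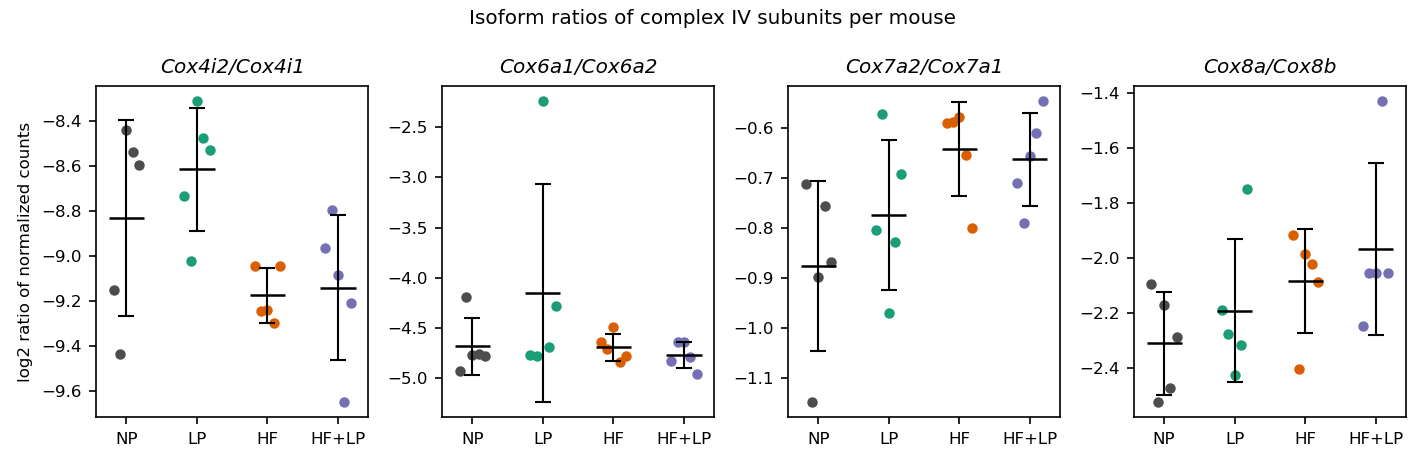
Log2 ratio of normalized counts of the isoforms of 4 complex IV subunits (y axis, a separate scale for each pair) in each mouse by diet group, with mean ± SD of 5 mice in black. LP mouse 13 stands at −2.24 for Cox6a1/Cox6a2, while the other 4 LP mice lie between −4.78 and −4.28.

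Genes that work with the members were given by lists. Of 38 nuclear complex I genes, 0 were called by edgeR in any comparison. They were chosen by symbol, as Nduf with a, b, c, s, or v and a digit, a form that Ndufa4 also has. In HF + LP compared to LP, 23 were higher and 1 lower with an unadjusted p below 0.05, or 63.2% in all beside 15.9% of all genes, with a median log2 fold change of 0.30. Without LP mice 13 and 20 these were 4 and 1, or 13.2% beside 7.50%, and the median was 0.15. In LP compared to NP 37 of the 38 were below 0, and 21 without those mice. Ndufc1 and Ndufa3 had the smallest p in HF + LP compared to LP, with log2 fold changes of 0.31 ± 0.09 and 0.45 ± 0.13 and adjusted p of 0.107 and 0.115 by the quasi-likelihood test, and the value for Ndufa3 was 0.25 without those mice. Assembly factors gave the same sign for all 4 genes of complex II and all 6 of complex III in that comparison, with 2 and 3 of them below an unadjusted p of 0.05, and 1 of each without LP mice 13 and 20, where 4 of the 6 for complex III were above 0. The log2 fold changes with the smallest p were 0.49 ± 0.15 for Sdhaf4 and 0.36 ± 0.12 for Sdhaf1 of complex II, and 0.54 ± 0.16 for Uqcc2 and 0.30 ± 0.13 for Bcs1l of complex III. These 4 values were 0.34, 0.18, 0.30, and 0.15 without those mice. Complex IV factors had 4 of 22 tested below that p (18.2%, near the 15.9% of all genes), with Sco1 at 0.49 ± 0.20 and Coa7 at 0.36 ± 0.14. There were 0 without those mice, with Sco1 at 0.26 and Coa7 at 0.14. Complex V factors had 0 of 5, with Fam173b at 0.26 ± 0.16 and Atpaf2 at −0.37 ± 0.22, and 0.06 and −0.10 without those mice.

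Among 15 regulators of respiratory chain genes, 2 were higher and 1 lower than in LP with an unadjusted p below 0.05 in the HF + LP mice, or 20.0%, near the 15.9% of all genes, and none was called. Without LP mice 13 and 20 there was 1. Nrf1, a transcription factor for nuclear respiratory genes, had a log2 fold change of −0.46 ± 0.15 with an adjusted p of 0.143, and Tfb2m, a mitochondrial transcription factor, 0.78 ± 0.32 with 0.244. Of the mitochondrially encoded subunits of complexes III to V, mt-Co1 and mt-Cytb were analysed, and the other 4 of the 6 listed were not analysed here. The log2 fold change in HF + LP compared to LP was 0.58 ± 0.18 for mt-Co1, a catalytic subunit of complex IV, with an adjusted p of 0.126 by the quasi-likelihood test, and 0.20 ± 0.15 for mt-Cytb, the cytochrome b of complex III, with 0.540. The value for mt-Co1 was 0.32 without LP mice 13 and 20, and that for mt-Cytb 0.12 without LP mouse 5. No set of these genes was tested as a group.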

How the data were processed

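RNA of left ventricles from 20 mice was sequenced by the authors with QuantSeq 3′ libraries and 75-base reads on a NextSeq 500 and aligned with BlueBee software. They deposited raw counts of reads per Ensembl gene and mouse, without normalization, and the 15956 listed genes each had at least 60 counts in total. The submitters' processing notes name GRCm38 and DESeq2 1.22.2, and the annotation and counter are not given in the sources used here. Per mouse, 12559607 to 23331907 counts were available.

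The groups came from the sample labels. Symbols, coordinates, and gene types came from GENCODE M21 on GRCm38, and symbols were found for 15917 genes. Counts were fitted with edgeR 4.0.16 in R 4.3.3 (filterByExpr, TMM, quasi-likelihood F test, all 20 libraries in 1 model), and the 13991 p-values of a comparison were adjusted by Benjamini-Hochberg. Calling required a mean normalized count over 50 together with an adjusted p below 0.01. The edgeR and DESeq2 1.42.0 fits were tested on simulated data. Isoform ratios used a prior count of 0.5, two-sided exact permutation tests, and adjustment over 16 tests. The last 300 bases of transcripts were compared by BLAST 2.17.0. Mice of a group carry separate animal numbers, with the words sample 2 added for LP mouse 5, and the animal numbers shared between groups belong to different mice.

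The members, lists, and naming rule were chosen with earlier results of these data known. Named were the 5 members with the smallest p in each comparison, the Sdh genes, the isoform families, Cyc1, Cycs, and the highest and lowest member of each complex, and of other lists the 2 smallest p in HF + LP compared to LP. Other genes named, such as Atp5k, Atp5j2, Uqcrfs1, Atp5j, Atp5s, and Uqcrb, were chosen after their values were seen. Alternatives were RLE size factors, TMM without mitochondrially encoded genes, DESeq2, no filter, a filter of 10 counts in all libraries, a threshold of 0.05, no minimum mean, a covariate for the library number, a block for the animal number, a model of just the 2 groups, each mouse left out in turn, and 3 pairs of libraries left out after the data were seen. Protein sequences were not used here.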

Additional observations from a re-analysis of the deposited data

Results flagged for a closer look

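Of 156 groups of 5 mice examined for a value far from the others, 12 (7.69%) held one, where chance gives about 1 in 20. Each is given as the mouse whose gap to the nearest other mouse of its group took an unusually large part of the group's range.

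LP mouse 13 was high for Cox6a1 with 5521 normalized counts, the nearest other LP mouse having 2753, and high for the log2 ratio Cox6a1/Cox6a2 with −2.24, against −4.28. The same ratio was −4.19 in NP mouse 4, against −4.76 in the nearest NP mouse, and that mouse also had 80.5 normalized counts of Atp5g2 against 52.2. LP mouse 20 was low for Cox7a2l with 1183 normalized counts against 1557, and for Cox7b with 16258 against 20273.

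HF mouse 2 had 7855 normalized counts of Atp5g1, above the next value of 7228, and 2032 of Cox8a, below the next value of 2482. HF mouse 5 had 17576 of Uqcrh against 20158. In HF + LP, mouse 3 was low for Atp5g1 with 7403 against 8307, mouse 5 low for the pseudogene Cox6c2 with 28.2 against 43.8, and mouse 4 high for the log2 ratio Cox8a/Cox8b with −1.43 against −2.05.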

How the results depend on the processing

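The count of called members was 0 under each alternative run, except that DESeq2 called 1 member in HF + LP compared to LP and 1 over the 4 groups, Atp5e in both. In HF + LP compared to LP, the count at an unadjusted p under 0.05 ranged from 0 with the replicate block to 27 without HF + LP mouse 3. With the replicate block the members' median log2 fold change was 0.14, and the log2 fold change of Cox4i2 turned from −0.64 to 0.0345. The 16 same-numbered pairs of mice correlated from −0.556 to 0.475, with a mean of −0.025 and 7 above 0.1. These values cannot settle whether the number marks a shared factor, which was not tested. Leaving out 1 mouse, the difference in log2 ratio ranged from −0.0668 to 0.117 for Cox6a1/Cox6a2 in HF compared to NP, and in HF + LP compared to HF from −0.0516 to 0.162 for Cox4i2/Cox4i1, from −0.0596 to 0.0117 for Cox7a2/Cox7a1, and from −0.0196 to 0.184 for Cox8a/Cox8b, so none of these has a settled sign. Over all alternatives, members at an unadjusted p under 0.05 ranged from 0 to 3 in HF compared to NP, 0 to 6 in HF + LP compared to HF, 0 to 7 in LP compared to NP, 0 to 9 in the interaction, and 2 to 11 over the 4 groups. Depth limits Cox7b2, Cox6b2, Cox4i2, Atp5g2, Atp5l, and the pseudogenes, whose means were at most 80.1 normalized counts.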
